A study of Mus musculus with 23 samples.

Results

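The genes of oligodendrocytes and their myelin were followed in C57BL/6J mouse brain, in animals with 0, 1 or 2 copies of a Meis1 allele. Oligodendrocytes are the glia that wrap axons of the central nervous system in myelin, a stack of membrane held together by a small set of abundant proteins. In the mouse forebrain their first precursors leave the ventral wall, where the transcription factors Olig1 and Olig2 are already made by dividing cells, while the myelin proteins appear after birth. The set was made of 9 genes, namely Mbp, Mobp, Mag, Mog, Cnp, Mal and Cldn11, which code for myelin proteins, and the factor genes Olig1 and Olig2. Every probe that the array annotation gives for these symbols was taken, which came to 16 of the 25697 probes, for 9 of the 16593 genes that a probe names alone.

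RNA from each mouse was hybridised to 1 Illumina array. At E12.5 there were 5 wild types, 6 heterozygotes and 5 homozygotes, each group holding 3 males and the rest females. Their tissue is labelled forebrain, although the title of the series speaks of the ganglionic eminences. The adults were males of 23 weeks, 3 wild types and 4 heterozygotes, with tissue labelled brain. It is in the adults' labels that the allele is called Meis1, and what was altered in it they do not say. Each array detected between 52.3% and 55.1% of its probes. The labels number the mice of a group as replicates and give each a mouse number of its own. The first part of that number was read as the litter of an embryo (litters 509, 542, 549 and 551), which the labels do not state, and litter 549 held 0 wild types.

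The labels were first checked with Meis1 itself, which codes for a homeobox protein. By limma's moderated test its signal was lower by 1.22 ± 0.12 log2 units (SE) in homozygous than in wild type embryos (log2 change -1.22, adjusted p = 0.000287), while the changes in heterozygotes, -0.40 in embryos (adjusted p = 0.999) and -0.62 in adults (adjusted p = 0.387), missed the threshold. Ventral forebrain progenitor genes, such as Dlx1, Dlx2 and Nkx2-1, had a mean level between 8.04 and 8.44 (log2) over 8 genes on the embryonic arrays, and 8 mature neuron genes lay between 11.40 and 11.55 on the adult arrays. Levels below are log2 normalized signals. A probe counted as detected on an array where its detection p, which sets it against the negative control probes, was under 0.05.

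The first question was how the genes differed between the embryonic and the adult samples of the same genotype. In wild types, 15 of the 16 probes were higher in adults by limma at an adjusted p under 0.05, against 31.4% of the 16352 probes tested (37% were lower), and 14 of them were higher by at least 2 log2 units, against 8.22% of all probes. The median fitted change of the 16 probes was 5.16 log2 units, or 4.51 with the 8 probes that were detected on no wild type embryonic array at the lower bound of their change, beside -0.12 over all probes. All 7 myelin genes rose by every probe, as did Olig1, and Olig2 was the exception, by 1 probe that was dim in adults. Stage goes together here with tissue (brain against forebrain) and with the array set, and these cannot be told apart. In RNA from whole tissue, fewer cells of a type and less RNA per cell cannot be told apart either. All values of this comparison come from the 23 arrays normalized together.

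Mbp codes for myelin basic protein, which draws the inner faces of the myelin membrane together. By probe ILMN_2737200 it stood at 5.38, 5.15, 5.19, 5.67 and 5.21 in the wild type embryos and at 14.32, 14.46 and 14.53 in the wild type adults. The groups lay far apart, the adults close together near the top of the scale and the embryos near background, with detection on 2 of 5 wild type and 9 of 16 embryonic arrays. The change of 9.12 ± 0.15 log2 units (SE, 3 adults and 5 embryos, adjusted p = 4.62e-23) is thus measured against embryonic values of which most were not above background.

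The 3 Mbp probes did not move by the same amount. ILMN_3081854 was not above background on any of the 5 wild type embryonic arrays, where it lay between 4.71 and 4.99, and reached 12.001, 12.07 and 12.19 in the adults, so Mbp by this probe was at least 118-fold higher in adults (adjusted p = 1.67e-21). For such probes the fold is a lower bound, the mean of the adults against the embryonic mean of, on each array, the lowest signal among detected probes or the probe's own signal where that was higher. ILMN_3011353, by contrast, was detected on all 16 embryonic arrays, at 7.34, 7.31, 7.61, 7.29 and 7.06 in wild types, and at 9.15, 8.97 and 9.08 in adults. Its groups were also separate, but the change of 1.71 ± 0.13 (adjusted p = 3.79e-11) was the smallest rise among the 15. Mbp is known to make both the myelin proteins and the golli proteins, which start further upstream and are also found outside oligodendrocytes. The files assign the 3 probes to 2 transcript records and do not say which products each one reads.

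**Figure D1:**
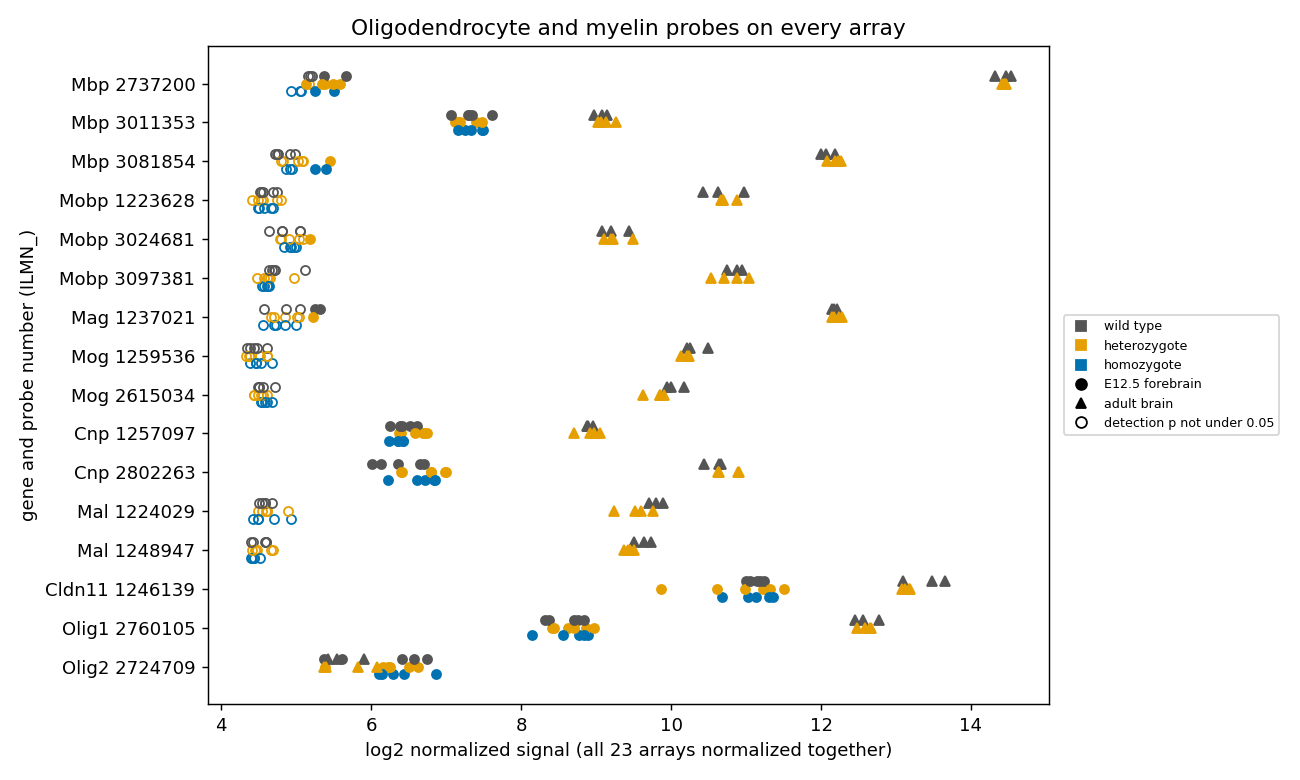
Log2 normalized signal (x axis, all arrays normalized together) of each of the 16 probes (y axis, gene and Illumina probe number) on every array, with circles for E12.5 forebrain, triangles for adult brain, colour for genotype and open symbols where the probe was not detected. Adult and embryonic points are apart for 15 probes, by 1.71 to 9.12 log2 units between the wild types, and overlap for Olig2.

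Mobp codes for a small basic protein of central myelin that, like Mbp, lies on the inner side of the membrane. None of its 3 probes was above background on any of the 5 wild type embryonic arrays, and detection on the other embryonic arrays was limited to ILMN_3024681 on 1 array. By ILMN_1223628 the adults stood at 10.98, 10.63 and 10.42 and the wild type embryos between 4.52 and 4.75, which makes Mobp at least 44.4-fold higher in adults (adjusted p = 2.90e-21). The other probes gave at least 50.3-fold for ILMN_3097381 (adjusted p = 6.46e-21) and at least 16.4-fold for ILMN_3024681 (adjusted p = 2.56e-18). All 3 Mobp probes were thus higher in adults, and the sizes of their rises are known as bounds and were not compared.

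Mag and Mog code for surface proteins of the immunoglobulin family. Mag, the myelin-associated glycoprotein on the membrane that faces the axon, stood at 5.26, 5.04, 5.32, 4.57 and 4.87 in wild type embryos, detected on 2 of the 5 arrays, and at 12.17, 12.14 and 12.21 in adults. The adults lay close together and all stood far above every embryo, with a change of 7.09 ± 0.14 (adjusted p = 2.96e-21). Mog, the glycoprotein on the outermost myelin surface, was not detected on any of the 16 embryonic arrays by either probe. By ILMN_1259536 the wild types were between 4.35 and 4.61 as embryos and at 10.21, 10.50 and 10.25 as adults, so that Mog was at least 34.7-fold higher in adults (adjusted p = 6.35e-22). ILMN_2615034 gave at least 28.6-fold (adjusted p = 3.46e-22).

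Mal, a membrane proteolipid of myelin lipid rafts, was likewise not detected on any of the 16 embryonic arrays by either probe. By ILMN_1224029 it was between 4.50 and 4.68 in wild type embryos and at 9.71, 9.89 and 9.80 in adults, at least 24.2-fold higher (adjusted p = 1.33e-19), and ILMN_1248947 gave at least 21.4-fold (adjusted p = 1.37e-21). Both probes of Mal therefore separated the stages without overlap.

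Cnp and Cldn11 differed from these genes in being detected on all 16 embryonic arrays. Cnp codes for a cyclic nucleotide phosphodiesterase that is abundant in the uncompacted parts of the myelin sheath. By ILMN_2802263 it stood at 6.36, 6.70, 6.01, 6.13 and 6.65 in wild type embryos and at 10.44, 10.64 and 10.67 in adults, a change of 4.21 ± 0.19 (adjusted p = 3.10e-15). By ILMN_1257097 it stood between 6.25 and 6.61 in wild type embryos and between 8.88 and 8.96 in adults, a smaller rise of 2.46 ± 0.12 (adjusted p = 1.15e-14). The Cnp probes agreed in direction, and neither showed any overlap of the stages.

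Cldn11 codes for a claudin that forms the tight junctions of the myelin sheath and is also known from cells of the meninges. It stood at 11.24, 11.14, 11.18, 10.996 and 11.05 in wild type embryos and at 13.65, 13.48 and 13.10 in adults, a rise of 2.32 ± 0.26 (adjusted p = 3.28e-08) with no overlap. Markers of meningeal and mesenchymal cells moved the other way between the stages: 10 of the 13 tested were lower in adults and 1 was higher, with Col1a1, a fibrillar collagen gene, at -3.88 ± 0.26 (adjusted p = 7.01e-12) and Twist1 at -3.98 ± 0.27 (adjusted p = 7.50e-12). Their mean level was between 7.85 and 8.52 on the embryonic arrays (13 genes) and between 5.94 and 6.15 on the adult arrays (10 genes), each on the scale of its own set. Their part in the embryonic Cldn11 signal was not tested.

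The factor genes Olig1 and Olig2, which code for related basic helix-loop-helix proteins, were both detected on all 16 embryonic and all 7 adult arrays but differed in their stage change. Olig2 was read by 1 probe, which was dim in adults. Its adult signal before normalization was 118.8 to 146.5, beside array medians of 119.1 to 142.8, while that of Olig1 was 2375 to 3957. Olig1 stood at 8.32, 8.37, 8.85, 8.76 and 8.70 in wild type embryos and at 12.45, 12.56 and 12.77 in adults, a rise of 4.00 ± 0.17 (adjusted p = 2.24e-15) with no overlap. Olig2, which in mice is needed for oligodendrocytes to be specified, stood at 5.37, 6.41, 6.57, 5.62 and 6.74 in wild type embryos and at 5.43, 5.90 and 5.54 in adults. Its groups overlapped, 2 embryos lying within or below the range of the adults, and its change of -0.49 ± 0.30 missed the threshold (adjusted p = 0.153), with an interval from -1.12 to 0.13. Those 2 embryos came from litter 551. Without 1 of them, wild type male replicate 1, the Olig2 change was -0.73 (adjusted p = 0.0318).

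**Figure D2:**
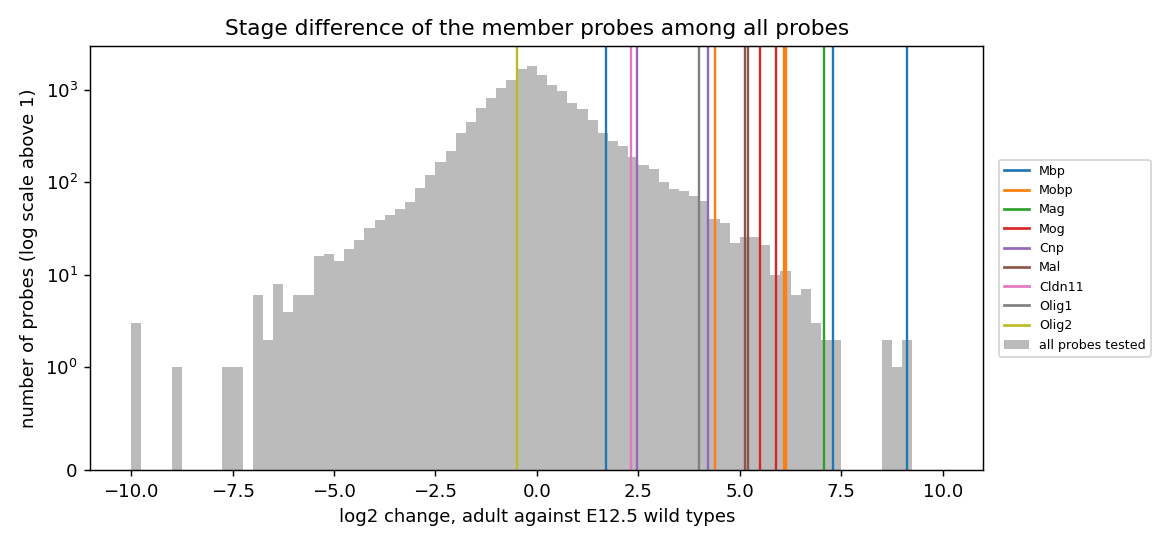
Number of probes (y axis, log scale above 1) by log2 change between adult and E12.5 wild types (x axis) for all 16352 probes tested in grey, with a coloured line at the change of each of the 16 member probes. All lines but that of Olig2 lie right of 0. The smallest rises were those of Mbp ILMN_3011353 (1.71), Cldn11 (2.32) and Cnp ILMN_1257097 (2.46). Larger changes were found for 10.3%, 6.40% and 5.75% of all probes, in that order.

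The heterozygotes, 4 adults and 6 embryos, gave the same picture in a comparison added after the wild types had been seen. There 15 probes rose, against 32.8% of all probes, 14 of them by at least 2 log2 units, against 8.54%, and Olig2 was again the probe that missed the threshold (-0.49 ± 0.28, adjusted p = 0.116). Mbp by ILMN_2737200 changed by 9.10 ± 0.13, Mag by 7.20 ± 0.13 and Olig1 by 3.94 ± 0.16. Both comparisons rest on 1 fit.

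Background correction set the size of the changes but not their calls: with no background removed, the rise was 1.16 for Mbp by ILMN_3011353, 1.47 and 2.93 for the Cnp probes, 2.24 for Cldn11 and 3.60 for Olig1, all of them probes detected on every embryonic array. The bounds given above hold for the background-corrected signal and are larger than the differences without that correction, which were 2.76 and 2.67 log2 units for the Mal probes. With each array shifted to a common median in place of quantile normalization, the median of all probes moved from -0.12 to -0.34, and the rise of Mbp by ILMN_3011353 became 1.17 and that of Cldn11 1.64. The same 15 probes passed in both cases.

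Other genes of the lineage gave the surroundings of these changes. Of a list of 42 further myelin and mature oligodendrocyte genes, 34 had a probe and 30 were tested. Of these 25 were higher in adults, 17 by at least 2 log2 units, and 0 were lower, with a median change of 3.20. Over all probes 31.4% were higher, and 8.22% by at least 2 log2 units. Detection on 3 of the 23 arrays, which adults alone can give, was enough to be tested, while 18 of the list passed the filter of the embryonic set. Genes that entered by their adult signal alone could hardly be lower, so these counts depend on the filter. Bcas1 rose by 6.90 ± 0.34 (adjusted p = 2.88e-14), Omg, the oligodendrocyte-myelin glycoprotein, by 6.48 ± 0.18 (adjusted p = 8.34e-19) and Fa2h, which makes the hydroxylated fatty acids of myelin lipids, by 6.16 ± 0.10 (adjusted p = 7.61e-23). Of 11 precursor genes tested, 3 were higher and 4 lower, shares near the 31.4% and 37% over all probes. Gpr17 and Enpp6, which mark cells that are about to make myelin, rose by 3.35 ± 0.16 and 2.89 ± 0.14, and Bmp4 fell by 2.27 ± 0.21 (limma, adjusted p = 1.94e-09). Ventral progenitor genes, active in the embryonic region where Olig1 and Olig2 are first made, were lower in 7 of 8 cases, with a median change of -2.08 and Dlx2 at -3.32 ± 0.20 (adjusted p = 1.08e-12).

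The rise was not limited to oligodendrocyte genes. All 8 astrocyte genes and all 8 mature neuron genes tested were higher in adults, with median changes of 3.18 and 3.60, as were 7 of 8 microglia genes, with a median of 1.46. Over all probes 31.4% were higher. The same filter applied to these lists, of which 4 astrocyte, 8 neuron and 7 microglia genes were tested in the embryonic set. Of 7 endothelial genes 2 were higher and 2 lower, which is no more than over all probes. Of the 8 genes listed for Schwann cells, which make the myelin of peripheral nerves, 6 had a probe and 3 were tested, and 2 of these were higher, Egr2 by 2.32 ± 0.17 and Ncmap by 0.62 ± 0.19. The part of the mixture of cell types in the changes of the members was not tested.

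Promoters of members that rose are shown with that of Olig2, which did not pass the test. RefSeq promoters on build GRCm38.p6 were held for 7 of the 9 genes, and the 250 bases before the start were searched on both strands for the SOX core CTTTGT, which reads ACAAAG from the other strand. They were also searched for the motif of the oligodendrocyte factor MYRF, in its form CTGGCAC and its other form CTGGTAC, which from the other strand read GTGCCAG in the first case and GTACCAG in the second. No matches overlapped. The SOX core stood in 3 of the 7 windows, Mobp with 6 matches and Mag and Cnp with 1 each, against 16.5% of 27025 genes. The MYRF motif stood in 3 of the 7, with 1 match each in Mag, Mog and Cnp, against 5.86% of genes. Neither was found in the windows of Mal, Cldn11 and Olig2. These are matches of letters and no measure of binding. In the sequences below, 5′ to 3′ on the gene's strand, capitals mark the matches. The Mobp window lies at chr9:120149492-120149741 on the + strand, Mag at chr7:30914864-30915113 on the - strand, Mog at chr17:37023399-37023648 on the - strand, Cnp at chr11:100574689-100574938 on the + strand and Olig2 at chr16:91225300-91225549 on the + strand.
Mobp: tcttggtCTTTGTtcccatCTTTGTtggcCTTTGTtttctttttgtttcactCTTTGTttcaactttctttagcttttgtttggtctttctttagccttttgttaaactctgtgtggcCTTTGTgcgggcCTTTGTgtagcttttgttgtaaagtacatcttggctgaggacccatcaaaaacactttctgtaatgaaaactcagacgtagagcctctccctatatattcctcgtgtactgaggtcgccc
Mag: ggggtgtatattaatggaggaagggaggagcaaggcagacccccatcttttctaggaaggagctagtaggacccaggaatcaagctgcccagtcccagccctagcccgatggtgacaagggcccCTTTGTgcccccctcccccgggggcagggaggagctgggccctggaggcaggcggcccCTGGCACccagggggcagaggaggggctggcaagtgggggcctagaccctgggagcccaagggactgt
Mog: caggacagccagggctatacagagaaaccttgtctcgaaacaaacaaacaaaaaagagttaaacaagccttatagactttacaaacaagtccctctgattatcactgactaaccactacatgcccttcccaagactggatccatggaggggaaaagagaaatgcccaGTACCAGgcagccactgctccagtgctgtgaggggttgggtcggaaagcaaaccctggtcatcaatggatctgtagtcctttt
Cnp: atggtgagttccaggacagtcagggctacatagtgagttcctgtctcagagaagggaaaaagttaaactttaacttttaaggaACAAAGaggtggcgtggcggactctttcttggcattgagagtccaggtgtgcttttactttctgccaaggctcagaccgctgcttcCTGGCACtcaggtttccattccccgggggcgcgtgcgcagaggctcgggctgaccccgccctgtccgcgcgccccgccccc
Olig2: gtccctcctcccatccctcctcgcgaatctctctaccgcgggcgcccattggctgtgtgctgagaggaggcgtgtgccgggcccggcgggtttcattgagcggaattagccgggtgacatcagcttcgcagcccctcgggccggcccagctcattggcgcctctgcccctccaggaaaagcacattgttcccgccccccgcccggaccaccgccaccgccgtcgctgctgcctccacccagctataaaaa
In Mobp, 4 of the 6 SOX cores stand in the first part of the window. In Mag and Cnp the SOX core lies upstream of the MYRF motif, and Olig2 is shown as 1 of the 3 members with neither motif, beside the risen genes Mal and Cldn11.

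The second question was whether 1 or 2 copies of the allele changed these genes at E12.5. Of the 16 probes, 7 (of 5 genes) were detected on enough embryonic arrays to be tested, the 2 Mbp probes ILMN_2737200 and ILMN_3011353, both Cnp probes, Cldn11, Olig1 and Olig2, and the remaining 9 were each detected on at most 3 of the 16 arrays. In homozygotes against wild types, 0 of the 7 passed by limma, against 0.0488% of the 14340 probes tested, and 1 had an unadjusted p under 0.05, as did 11.8% of all probes. The changes lay between -0.10 and 0.36 log2 units, with adjusted p from 0.420, and their 95% intervals reached from -0.39 to 0.70. Values below are from the embryonic arrays normalized apart, and the fit held genotype, sex and litter.

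Cnp by ILMN_2802263 was the probe with the unadjusted p under 0.05. It stood at 6.57, 6.92, 6.19, 6.31 and 6.86 in wild types and at 6.94, 6.83, 7.06, 6.42 and 7.07 in homozygotes, so the groups overlapped. The fitted change was 0.36 ± 0.16 (adjusted p = 0.420). The other Cnp probe, ILMN_1257097, gave -0.07 ± 0.11 (adjusted p = 0.816), with homozygotes between 6.43 and 6.63 inside the wild type range of 6.45 to 6.82 but for 1 array. The Cnp probes therefore disagreed in sign.

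Olig2 stood at 5.51, 6.61, 6.79, 5.77 and 6.96 in wild types and at 6.49, 6.34, 6.29, 6.65 and 7.10 in homozygotes. The homozygotes lay within the spread of the wild types except for the highest, and the change was 0.20 ± 0.14 (adjusted p = 0.554). Olig1 stood at 8.58, 8.63, 9.11, 9.02 and 8.97 in wild types and at 9.17, 9.04, 8.41, 9.11 and 8.82 in homozygotes. The homozygotes held both the lowest and the highest of these values, with a change of -0.10 ± 0.14 (adjusted p = 0.770).

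Cldn11 stood at 11.51, 11.41, 11.45, 11.27 and 11.32 in wild types and at 11.40, 11.29, 11.57, 10.96 and 11.62 in homozygotes, again overlapping, with a change of 0.13 ± 0.23 (adjusted p = 0.829). The sign of this change, and those of Olig1 and of Mbp by ILMN_3011353, turned when litter was left out of the fit. Mbp differed by -0.07 ± 0.12 (adjusted p = 0.813, ILMN_2737200) and by -0.02 ± 0.13 (adjusted p = 0.958, ILMN_3011353). By the former it was detected on 2 of 5 homozygote and 2 of 5 wild type arrays.

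**Figure D3:**
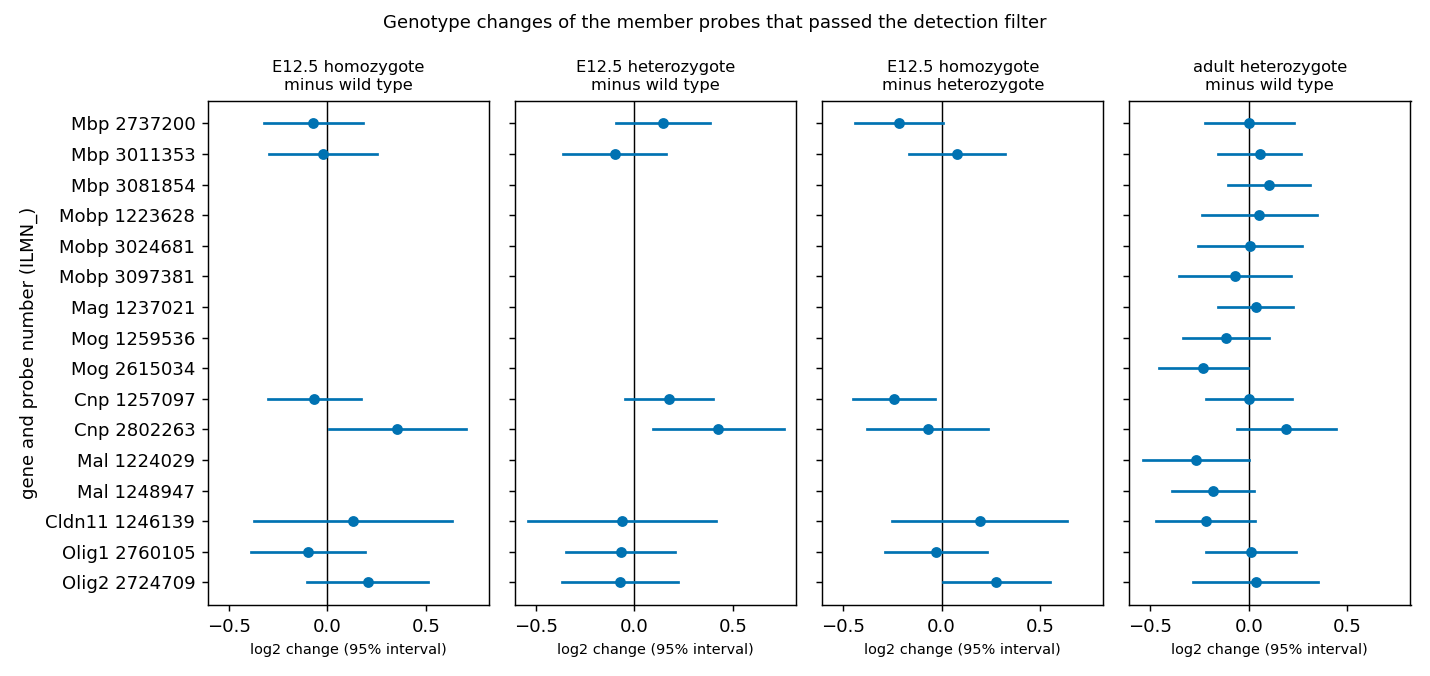
Log2 change (x axis, points, with 95% intervals as bars) of each member probe (y axis) that passed the detection filter in the 3 embryonic genotype comparisons and in the adults. The embryonic points lie between -0.24 and 0.43 and the adult points between -0.27 and 0.19, and none passed the threshold.

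Heterozygous against wild type embryos likewise gave 0 of 7 probes, against 0% of all probes, with 1 member and 3.32% of all probes at an unadjusted p under 0.05 by limma. The probe was again Cnp by ILMN_2802263, which in the 6 heterozygotes had its lowest value at 6.61, its median at 7.02 and its highest at 7.23. These overlapped the upper wild types, and the change was 0.43 ± 0.15 (adjusted p = 0.999). Olig1 (lowest 8.67, median 8.93, highest 9.24) and Olig2 (lowest 5.52, median 6.43, highest 6.83) each differed from wild types by -0.07, with SE 0.13 and 0.14, and both signs turned without the litter term. Cldn11 had a wider spread in heterozygotes than in the other genotypes, with its lowest value at 10.14, its median at 11.38 and its highest at 11.77. The lowest was male replicate 1 of litter 549, in which the meningeal and mesenchymal genes averaged 8.02. Lower means of these genes, 7.85, 7.90 and 7.97, were found in 2 wild types (male replicate 2, female replicate 2) and in heterozygous female replicate 3, where Cldn11 stood at 11.41, 11.32 and 10.89. In homozygous female replicate 1, also of litter 549, these genes averaged 8.03 and Cldn11 stood at 10.96, the lowest of the homozygotes. The part of the meningeal and mesenchymal genes in the spread of Cldn11 was not tested. The changes of the 7 probes lay between -0.10 and 0.43.

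Homozygotes against heterozygotes gave 0 of 7 probes, against 0.0697% of all probes, with changes between -0.24 and 0.28 and adjusted p from 0.599. By limma 2 members and 8.33% of all probes had an unadjusted p under 0.05. Cnp by ILMN_1257097 stood between 6.58 and 6.96 (median 6.86) in heterozygotes and at 6.43, 6.56, 6.63, 6.63 and 6.56 in homozygotes, overlapping at the lower end, with a change of -0.24 ± 0.10 (adjusted p = 0.599). Olig2 differed by 0.28 ± 0.13 (adjusted p = 0.599), and with males alone, fitted without litter, by -0.16. The 3 genotype comparisons share their arrays and are not independent of one another. None of the 18 further myelin genes tested in embryos, of the 10 precursor genes or of the 8 ventral progenitor genes passed in any of them. Sex, tested in the same fit, gave 0 of 7 members, against 0.0697% of all probes.

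Olig2 differed between the litters. A test of any difference between the 4 litters, added after the data were seen, passed for 34% of the 14340 probes by limma's moderated F test. It passed for 2 of the 7 member probes, Olig2 (adjusted p = 0.000422) and Mbp by ILMN_2737200 (adjusted p = 0.0483). That share of the members was no larger than the share over all probes. Olig1 stood just outside the threshold (adjusted p = 0.0541), and the other 4 probes were further from it, with adjusted p from 0.137 to 0.769. Olig2 lay between 5.51 and 6.34 in litter 551 (4 embryos), between 6.29 and 6.61 in litter 509 (3 embryos), between 6.34 and 6.65 in litter 549 (4 embryos) and between 6.72 and 7.10 in litter 542 (5 embryos). Litter 542 was thus above every other embryo, and 3 of the 4 embryos of litter 551 were below every other embryo. In litter 551 the homozygote, at 6.34, was the highest, 0.70 above the mean of the wild types, while homozygote and wild types differed by -0.32 in litter 509 and by 0.22 in litter 542. The order of the litters was not the same for Olig1, which was highest in litter 549 (9.11 to 9.24) and lowest in litter 509 (8.41 to 8.88). Mbp by ILMN_2737200 was highest in litter 551 (5.52 to 5.83) and otherwise between 5.03 and 5.64.

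**Figure D4:**
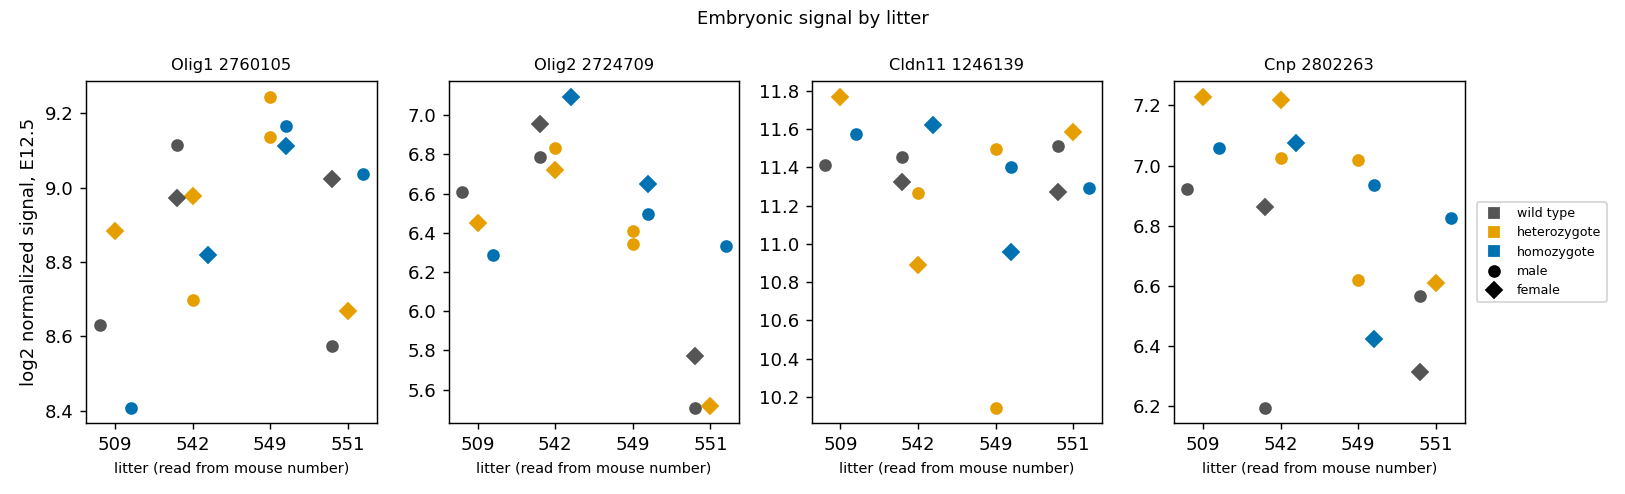
Log2 normalized signal (y axis, embryonic arrays) of Olig1, Olig2, Cldn11 and 1 Cnp probe by litter (x axis), with colour for genotype, circles for males and diamonds for females. Olig2 is highest in litter 542 (6.72 to 7.10) and lowest in litter 551 (5.51 to 6.34), and Olig1 is highest in litter 549.

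Between the litters that were apart for Olig2, some cell type lists overlapped and others did not. Ventral progenitor genes averaged between 8.15 and 8.40 in litter 551 and between 8.25 and 8.37 in litter 542, which overlap, and precursor genes averaged between 6.94 and 7.28 and between 7.10 and 7.43. Further myelin genes did not overlap, at 7.07 to 7.30 in litter 551 and 6.98 to 7.06 in litter 542. Litters 509 and 542 did not overlap for astrocyte genes (4 genes, 10.03 to 10.18 and 9.59 to 9.71), mature neuron genes (9.17 to 9.41 and 8.83 to 9.10), further myelin genes (7.07 to 7.12 in litter 509) or ventral progenitor genes (8.05 to 8.21 in litter 509). They overlapped for precursor, microglia, endothelial, Schwann cell, and meningeal and mesenchymal genes. Differences between litters were common, passing for 34% of all probes by the F test above. The part of these lists in the Olig2 differences was not tested. The genes most like the mean of Olig1 and Olig2 over the 16 embryonic arrays were Elac2 (Pearson r = 0.910), Sdc1 (0.904), Gemin4 (0.901), Ppp2r5d (0.899) and Sf1 (0.884). These coefficients are descriptions over arrays that share litters. Olig2 was closer to that mean (r = 0.916) than Olig1 (r = 0.635), each being itself a part of it.

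The third question was whether 1 copy of the allele changed the genes in the adult brain, where all 16 probes were detected on every array. By limma 0 of 16 passed in heterozygotes against wild types, against 0% of the 14266 probes tested, and 1 had an unadjusted p under 0.05, beside 10.6% of all probes. The median change of the members was 0.01, as it was over all probes, and the changes lay between -0.27 and 0.19 with adjusted p from 0.466. The 95% intervals of the 16 probes together reached from -0.53 to 0.44. Values are from the 7 adult arrays normalized apart.

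Mog by ILMN_2615034 was the probe whose groups did not overlap, 1 of 16 members (6.25%), while 10.4% of all probes tested had groups that did not overlap. It stood at 9.05, 9.21 and 8.996 in wild types and at 8.90, 8.68, 8.95 and 8.90 in heterozygotes. All 4 heterozygotes were below all 3 wild types, by a fitted change of -0.23 ± 0.10 (adjusted p = 0.466). By the other Mog probe, ILMN_1259536, the wild types stood at 9.26, 9.55 and 9.30 and the heterozygotes at 9.27, 9.18, 9.29 and 9.26, with overlap and a change of -0.12 ± 0.10 (adjusted p = 0.664).

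Mal had negative changes by both probes. By ILMN_1224029 it stood at 8.76, 8.94 and 8.85 in wild types and at 8.81, 8.57, 8.65 and 8.30 in heterozygotes, where 1 heterozygote lay within the wild types, and the change was -0.27 ± 0.12 (adjusted p = 0.466). By ILMN_1248947 it stood at 8.69, 8.79 and 8.55 against 8.56, 8.51, 8.43 and 8.48, a change of -0.18 ± 0.09 (adjusted p = 0.495). Cldn11 stood at 12.61, 12.51 and 12.16 in wild types and at 12.19, 12.24, 12.15 and 12.25 in heterozygotes. There the wild types spread over a wider range than the heterozygotes, and the change was -0.22 ± 0.11 (adjusted p = 0.495).

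**Figure D5:**
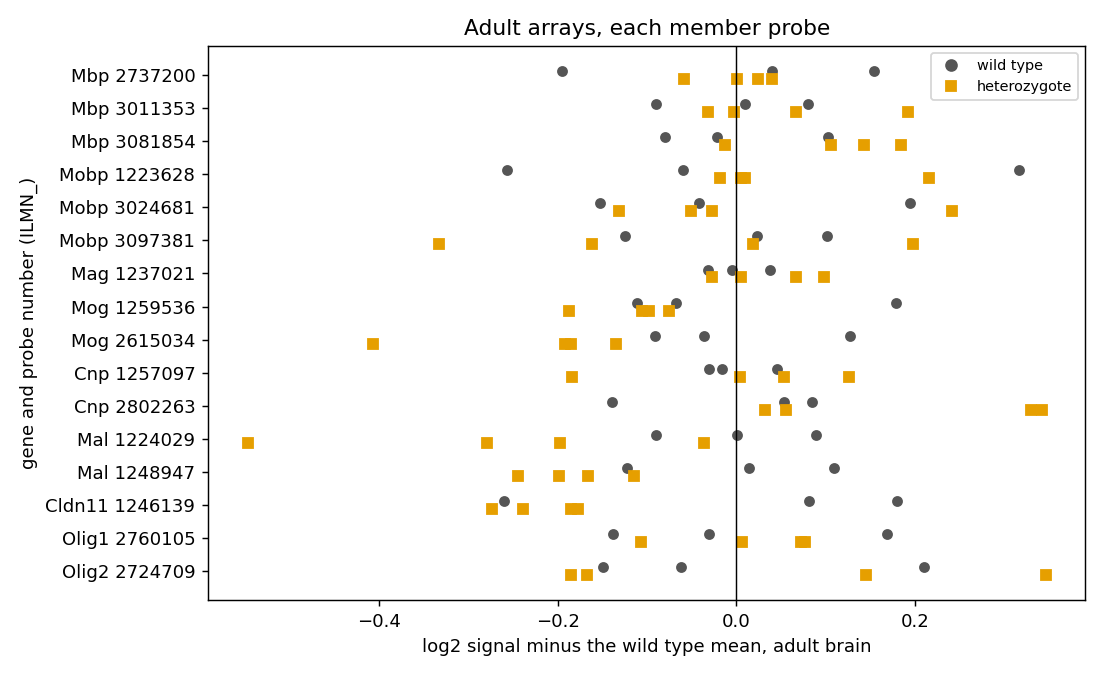
Log2 signal of each adult array minus the mean of the 3 wild types (x axis) for the 16 probes (y axis), with circles for wild types and squares for heterozygotes. The groups overlap for every probe except Mog ILMN_2615034, whose heterozygotes lie between 8.68 and 8.95 and wild types between 8.996 and 9.21.

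Cnp gave a positive change by ILMN_2802263, with wild types at 9.49, 9.68 and 9.71 and heterozygotes at 9.66, 9.68, 9.97 and 9.95, overlapping, and a change of 0.19 ± 0.11 (adjusted p = 0.539). For the remaining probes of Mbp, Mobp, Mag, Cnp, Olig1 and Olig2 the changes lay between -0.07 and 0.11. Mbp by ILMN_2737200, at 0.0019, stood near the top of the scale, where quantile normalization sets a value by its rank. Wild type replicate 2 and heterozygote replicate 2 held the same value, 13.61. With all arrays kept, other settings gave changes between -0.0055 and 0.093 for this probe. Mag was the most even of the members, at 11.24, 11.22 and 11.29 in wild types and at 11.35, 11.32, 11.26 and 11.22 in heterozygotes, with a change of 0.04 ± 0.09 (adjusted p = 0.891). Olig2 stood at 5.04, 5.40 and 5.13 against 5.33, 5.53, 5.02 and 5.001, and Olig1 at 11.53, 11.64 and 11.84 against 11.75, 11.74, 11.68 and 11.56. In both the heterozygotes covered most of the wild type range.

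In all, 9 of the 16 changes were positive. With arrays shifted to a common median, which moved the median of all probes to -0.11, 3 were positive, and the differences of Mal, Mog and Cldn11 stayed negative. With no background correction 10 were positive, and with the authors' processed values 9. Of the 30 further myelin genes tested in adults, 9 were positive, with a median of -0.08 beside 0.01 over all probes and 0 called. With the shift to a common median 3 of these 30 were positive, with a median of -0.21.

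The genes most like the mean of the 7 myelin members over the 7 adult arrays were Ak3 (Pearson r = 0.974), Ufl1 (0.970), Atxn2 (0.966), Paxbp1 (0.966) and Olfr1166 (0.966). That mean ranged from 10.59 to 10.79, so these coefficients describe small differences between 7 arrays. The members did not follow it equally: Mal (0.867), Mog (0.848) and Mobp (0.831) did so most, Mbp (0.248) and Cldn11 (0.169) little, and Mag (-0.078) and Cnp (-0.197) not at all. Each member is itself a part of that mean, which enters its coefficient.

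Whether the heterozygote effect differed between adults and embryos was tested directly on the 23 arrays normalized together. By limma 0 of 16 probes passed, against 0% of the 16352 probes tested, and 1 member and 6.78% of all probes had an unadjusted p under 0.05. The differences of the effects lay between -0.39 and 0.16 log2 units with adjusted p from 0.656, and their 95% intervals reached from -0.84 to 0.59. The largest was that of Mal by ILMN_1224029, -0.39 ± 0.16 (adjusted p = 0.656), a probe that was not detected in any embryo.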

How the data were processed

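RNA of 23 mouse brains was measured on Illumina arrays of 25697 probes. Per the file headers, the unnormalized table gives each probe of an array its intensity and a detection p-value. A second deposited table holds intensity that the authors processed further, some of it below 0, by steps the labels leave unstated. Per the submitters' processing notes, arrays were read with GenomeStudio 2011.1. Gene symbols came from the platform annotation.

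From the unnormalized intensity deposited by the authors, values were background-corrected and quantile normalized with neqc in limma 3.58.1 (R 4.3.3, offset 16) and put on the log2 scale, for the 16 embryonic and 7 adult arrays apart and for all 23 together. A probe was kept when detected (p under 0.05) in 5 or more embryos, 3 or more adults, or 3 or more arrays of the joint set, which left 14340, 14266 and 16352 probes. Linear models (lmFit, eBayes) gave two-sided p-values, adjusted by Benjamini-Hochberg over every probe kept, with 0.05 as the threshold. The embryonic fit held genotype, sex and litter, the adult fit genotype, and the joint fit sex, with litter added for the difference of effects. Gene lists used 1 probe per gene, of highest mean signal. Errors beside changes are SE. Mice of a litter are not independent. The stage comparisons held no litter term, so their SE and p-values treat embryos of 1 litter as independent. The number of arrays limits the precision.

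All member probes are named whatever their values. From the lists, members past the threshold with the 5 largest changes could be named, and the 5 genes of highest correlation. The members and lists were chosen with earlier results of these data known, and the meningeal list, the litter test and the heterozygote stage comparison were added after the data were seen. On simulated data with 100 probes changed by 1 log2 unit, 73% (difference of effects) to 96% (homozygotes against heterozygotes) were recovered, and at least 98% of those changed by 2. The simulated noise was independent between arrays, with no differences between litters. Changes smaller than 1 log2 unit, such as the genotype changes of the members, were not simulated. Alternatives were other background correction, scaling, filter, the authors' table, litter and replicate blocks, males alone and each array left out. The fits with a replicate block and those of males alone held no litter term. Promoters were from RefSeq. Mbp and Olig1 had no promoter shown.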

Additional observations from a re-analysis of the deposited data

Results flagged for a closer look

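In groups of 4 to 10 arrays, the array farthest from the others was set against the range of its group, and 2 of 37 groups of a probe and genotype had an array that stood apart, where chance gives 1.9 (1 in 20). Mobp by ILMN_1223628 was at 9.94 in adult heterozygote replicate 3, while the nearest of the other 3 heterozygotes was at 9.73. The wild types spanned 9.47 to 10.04 for the same Mobp probe, so this array lay inside their range. By ILMN_3024681 the same array was the highest of all adult arrays, wild types included, but it was not flagged as standing apart. By ILMN_3097381 it lay within the range of the other heterozygotes. Olig2 was at 5.52 in the heterozygous female embryo of litter 551 (replicate 1), while the nearest of the other 5 heterozygotes was at 6.34. The wild types of the same litter stood at 5.51 and 5.77 for Olig2, and its homozygote at 6.34.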

How the results depend on the processing

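No member probe passed in any genotype comparison under any alternative, single arrays left out included, and the count between the stages stayed at 15 or, without 1 wild type embryo, 16. The genotype changes are small and their signs were not firm. Without the litter term, homozygotes against wild types gave -0.023 for Cldn11, 0.018 for Mbp (ILMN_3011353) and 0.045 for Olig1, and heterozygotes gave 0.068 for Olig1 and 0.046 for Olig2, all of opposite sign to the values above. The fit of males alone also held no litter term. There homozygotes against wild types gave -0.034 for Cldn11, 0.038 for Mbp (ILMN_2737200) and 0.098 for Olig1. Heterozygotes gave 0.25 for Olig1 and 0.23 for Olig2, and homozygotes against heterozygotes gave 0.054 for Cnp (ILMN_2802263) and -0.16 for Olig2. In adults, with arrays shifted to a common median, the changes became -0.12 for Mag, -0.11 and -0.041 for Mbp (ILMN_3011353 and ILMN_3081854), -0.16 and -0.12 for Mobp (ILMN_3024681 and ILMN_1223628) and -0.11 for Olig1, and with no background correction Cnp (ILMN_1257097) stood at 0.00057. The cause was not tested.

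Whether replicate numbers pair the mice cannot be told here. Same-numbered samples correlated at -0.456 to 0.740 in embryos (median 0.351, against -0.240 for other pairs). In adults they correlated at -0.135 to 0.110 (median 0.0907, against 0.0301), so not every pair was positive. Of the embryos 8 of 16, and of the adults 2 of 7, were most like one of their own number. Some same-numbered embryos also shared a litter, and groups of 2 females gave coefficients of equal size and opposite sign. With a replicate block, which in the embryonic fits took the place of the sex and litter terms, the calls of members were unchanged. Homozygotes against wild types then gave -0.023 for Cldn11, 0.018 for Mbp (ILMN_3011353) and 0.045 for Olig1, the same as without the litter term. Heterozygous embryos gave 0.062 for Olig1, and adults gave 0.061 for Cnp (ILMN_1257097), -0.0055 for Mbp (ILMN_2737200) and 0.018 for Mobp (ILMN_3097381).

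With 1 array left out, changes that turned their sign ranged in homozygotes against wild types from -0.15 to 0.022 (Mbp, ILMN_2737200), -0.10 to 0.071 (Mbp, ILMN_3011353) and -0.056 to 0.36 (Olig2). In heterozygous embryos they ranged from -0.16 to 0.051 (Cldn11), -0.15 to 0.0016 (Olig1) and -0.18 to 0.015 (Olig2). For homozygotes against heterozygotes the ranges were -0.034 to 0.37 (Cldn11), -0.13 to 0.042 (Cnp, ILMN_2802263) and -0.15 to 0.048 (Olig1). In adults they were -0.042 to 0.062 (Cnp, ILMN_1257097), -0.10 to 0.082 (Mbp, ILMN_2737200), -0.070 to 0.11 (Mobp, ILMN_3024681), -0.074 to 0.21 (Mobp, ILMN_1223628), -0.16 to 0.018 (Mobp, ILMN_3097381), -0.056 to 0.10 (Olig1) and -0.069 to 0.14 (Olig2).

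Over all probes, homozygotes against wild types called 7, but 3 without background correction, 4 without the filter and 0 with males alone. Homozygotes against heterozygotes called 10, but 6 without the filter, 1 with males alone and 6 without homozygote male replicate 2. In adults 1 probe in place of 0 passed with a common median or without heterozygote replicate 2, and the difference of effects gave 4 in place of 0 without the filter and up to 3 without 1 adult array. Probes near background in embryos have only a bound there.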
